A study of Mus musculus with 4 samples.

Results

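DNase I hypersensitive sites that were called in all 4 libraries of the series were not spread evenly along the mouse autosomes, and this section describes the places where they lay closest together. The peaks of the 4 deposited lists were merged wherever they overlapped by at least 1 bp, which gave 38986 union regions, 38110 of them on the autosomes. Of these, 7949 autosomal regions were called in all 4 libraries and are named shared regions. They were counted in fixed 100 kb windows of the mm9 sequence by their midpoint. A window with at least 5 shared regions is named a hub window here. There were 64 hub windows, and the 362 shared regions in them are the members described below, 362 of 7949 shared autosomal regions. The members were chosen by measured values, their presence in all 4 peak lists and their density in a window, so both are descriptions and neither is tested.

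The libraries came from naive CD8+ T cells sorted from the spleen as GFP+ TCRbeta+ CD62Lhi CD44lo-med CD8+ cells and cultured for 72 h with IL-7 and IL-15, which keep T cells alive without antigen. Both genotypes carried hCD2-Cre, a Cre recombinase under the promoter of the human lymphocyte gene CD2, and the Cre reporter Rosa26-lsl-GFP. In the wild-type group (WT, 2 libraries) Tcf1 and Lef1 were wild type, and in the double knockout group (DKO, Tcf1-/-Lef1-/-, 2 libraries) both genes were floxed. The labels used here state neither the age and sex of the mice nor how many animals gave the replicates. Differences between replicates may therefore be technical. The series asks how Tcf1, a DNA-binding protein of the T lineage, works with CTCF in shaping the genome of these cells.

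DNase I cuts DNA that is not wrapped tightly by nucleosomes, so its cuts gather at promoters, enhancers and insulator sites. In mammals active genes are often packed together, and their promoters can then give several accessible sites within a short stretch. Repeated DNA is a further source of dense signal, because a reference sequence may hold fewer copies of a repeat than the genome, and reads from all copies then pile up on the few that are present. Genes and sequences at the hub windows are not given from an annotation, because neither an mm9 annotation nor an mm9 sequence was used here. For the same reason the T cell identity of the libraries was not checked against marker genes.

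Each value below is the authors' own for a peak. The fold enrichment is the height of the peak's summit over its local background, taken here with 1 fragment added to each. The pileup, the number of fragments over the summit, and the background were solved from the deposited fold and p-value. The lists held 17521 and 11073 peaks for WT replicates 1 and 2, and 34788 and 21353 peaks for DKO replicates 1 and 2. The median pileup of a peak was 18 to 23 fragments over the 4 lists, so most peaks rest on few fragments. Peaks on chromosome Y numbered 55 and 57 in the DKO lists and 0 in both WT lists, and Y is carried by males. The sex of the mice may therefore differ with genotype, and the 2 cannot be told apart in any comparison of WT with DKO below. Hub windows held 2.86% and 3.77% of the autosomal peaks of WT replicates 1 and 2, and 2.14% and 2.82% of those of DKO replicates 1 and 2.

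Most windows held few shared regions, and the hubs were the upper end of a steep decline. There were 3243 windows with 1 shared region, 1233 with 2, 458 with 3 and 126 with 4. Among the hubs, 44 windows held 5 members, 14 held 6 and 3 held 7. A single window each held 8, 11 and 18 members. Leaving out WT replicate 2, the shortest list, raised the number of hub windows from 64 to 269, so that list decides how many there are. The threshold of 5 is not a natural break, since windows with 4 continued the same decline. The regions just outside it were much like those just inside. In DKO replicate 1 the median fold enrichment was 12.8 for the 504 shared regions in windows with 4 and 12.7 for the 220 members in windows with 5. In WT replicate 1 these medians were 7.32 and 7.18.

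**Figure D1:**
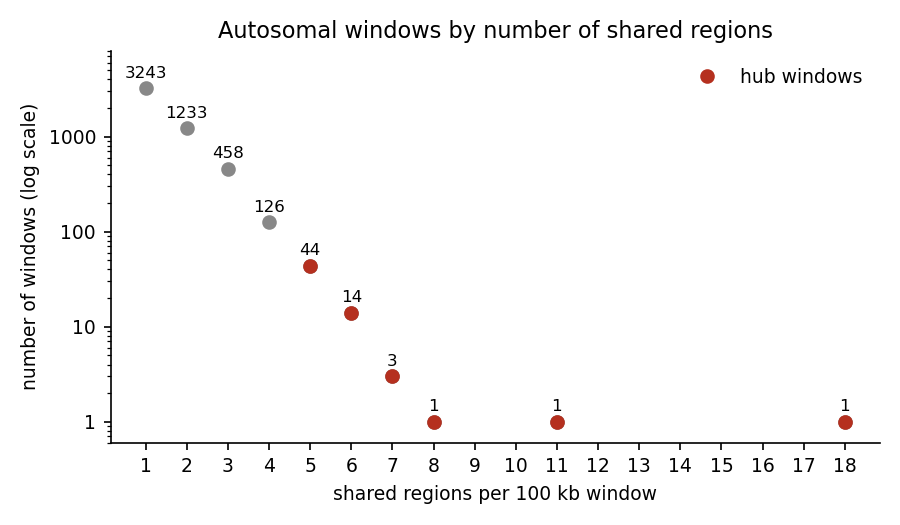
Number of autosomal 100 kb windows (log scale) against the number of shared regions they hold, with hub windows in red and other windows in grey. Counts fall from 3243 windows with 1 shared region to 44 with 5, and single windows stand at 8, 11 and 18.

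The hubs lay on 18 of the 19 autosomes. Chromosome 7 had the most, 12 hub windows with 62 members, or 9.97% of its 622 shared regions. Chromosome 17 had 8 hub windows with 42 members, 10.4% of its 404 shared regions, and chromosome 10 had 6 with 34 members. Chromosome 19, with 275 shared regions, had 4 hub windows that held 8.36% of them. Chromosome 16 had 255 shared regions and no hub. Chromosomes 3, 5, 12, 14 and 18 had 1 hub window each. No window on X reached 5 shared regions.

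In 5 places a pair of hub windows adjoined each other. They lay on chromosome 11 at 69700001 to 69900000 and on chromosome 15 at 76400001 to 76600000, with 11 members each. The others had 10 members each and lay on chromosome 7 at 19700001 to 19900000 and at 52300001 to 52500000, and on chromosome 19 at 4000001 to 4200000. No run was longer than 2 windows, although chromosome 10 had 4 hub windows between 79600001 and 80900000 that did not adjoin. Within a hub window the members spanned 22.7 to 98.3 kb, with a median of 73.7 kb. The median distance between neighbouring members was 10.5 kb, against 75.9 kb between neighbouring shared regions on all autosomes. Of the 298 distances within hubs, 29 (9.73%) were under 1 kb, against 2.38% of those on all autosomes. The rule asks for at least 5 shared regions in 100 kb, so shorter distances follow from how the windows were picked. A member itself was a small site, with a median width of 300 bp against 321 bp for the 7587 shared regions outside hubs.

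The richest hub stood apart from all others in the height of its signal. It is the window on chromosome 9 from 3000001 to 3100000, and its 18 members all lay in its first 38.0 kb. As general background, the start of the mm9 chromosome 9 sequence is known for satellite repeat sequence; this was not checked against a sequence here. The pileup at these members had a median of 316 and 235.5 fragments in the WT libraries. In the DKO libraries it was 411 and 373.5 fragments. In the other 63 windows the median pileup of the members did not exceed 39 and 29 fragments for the WT replicates, or 85 and 43 for the DKO replicates. The local background moved with it, with medians of 36.7 and 30.7 fragments in WT and 46.8 and 44.5 in DKO. Elsewhere the window medians of the background reached at most 5.19 fragments, in DKO replicate 1. Both genotypes were therefore high at this place, and the part of background in the calls was not tested.

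Of the 10 members with the highest value of the lowest fold over the 4 libraries, 9 lay in this chromosome 9 window. The strongest member was 3023444 to 3023621, with folds of 28.6 and 27.0 in WT and 29.8 and 27.9 in DKO, replicate 1 being given first here and below. Its pileups were 1742, 1356, 2279 and 2045 fragments in the same order. The genotypes overlapped at this site. At 3002046 to 3002188 the folds were 20.8 and 21.8 in WT and 22.8 and 21.5 in DKO, again with overlap. At 3006735 to 3006904 both WT folds, 25.6 and 28.7, were above both DKO folds, 20.9 and 19.2. The same order was seen at 3024380 to 3024565, with 24.1 and 25.045 in WT and 19.1 and 17.5 in DKO. At 3025488 to 3025626 it was turned around, with 13.2 and 12.9 in WT and 16.8 and 15.5 in DKO. Over the 18 members the folds ran from 5.10 to 28.6 in WT replicate 1, 4.09 to 28.7 in WT replicate 2, 4.76 to 29.8 in DKO replicate 1 and 5.06 to 27.9 in DKO replicate 2. Both DKO folds were higher at 4 of the 18 members and lower at 8. Over all shared autosomal regions both DKO folds were higher at 76.9% and lower at 0.767%. The member with the lowest single fold in this window, 3022085 to 3022232, had folds of 5.10 and 4.09 in WT and 7.24 and 7.28 in DKO.

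The only member outside chromosome 9 among those 10 lay on chromosome 7 from 25184469 to 25185063. This site of 595 bp had folds of 10.3 and 10.7 in WT and 16.0 and 13.9 in DKO. The DKO folds were both higher there. At the other end were 5 members whose lowest fold was near the listing minimum of 4. One, on chromosome 13 from 24870915 to 24871280, had folds of 4.11 and 4.49 in WT and 7.12 and 5.01 in DKO. Its pileups were 11 and 12 fragments in WT and 19 and 11 in DKO. Another, on chromosome 1 from 167639805 to 167640081, had folds of 4.45 and 4.05 in WT and 9.76 and 6.15 in DKO. The other members of these 5 were that of the chromosome 9 window, 79604910 to 79605124 on chromosome 10 and 76553094 to 76553375 on chromosome 15. In each of the 5 the lowest of the 4 folds was a WT fold. That is the usual case, since both DKO folds were above both WT folds at 76.9% of all shared autosomal regions.

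The second richest hub, on chromosome 8 from 19900001 to 20000000, held 11 members and 46 union regions, the most of any hub. WT replicates 1 and 2 had calls in 25 and 17 of them and DKO replicates 1 and 2 in 23 and 31. The longest list, DKO replicate 1, thus called fewer regions here than WT replicate 1, although it had 34788 peaks in all against 17521. The members were weak, with median folds of 5.99 and 5.46 in WT and 5.62 and 5.59 in DKO. At 19997980 to 19998140 the folds were 9.60 and 10.9 in WT and 5.38 and 8.85 in DKO, both WT values being higher. At 19953208 to 19953510 they were 10.3 and 10.4 in WT and 10.5 and 13.3 in DKO. A further hub lay nearby, at 19700001 to 19800000, with 5 members among 17 regions.

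The third richest hub, on chromosome 13 from 23600001 to 23700000, held 8 members among 24 regions. From general background, this part of the chromosome carries the large cluster of replication-dependent histone genes, which encode the proteins that package new DNA in dividing cells; the positions were not checked against an mm9 annotation. RefSeq's GRCm38 table, whose coordinates are not used here, lists 56 genes with Hist1 names on chromosome 13. The hub at 22100001 to 22200000 on the same chromosome, with 5 members, lies towards the other part of that cluster. In the 23600001 window the member at 23623532 to 23623733 had folds of 6.58 and 6.30 in WT and 13.8 and 11.2 in DKO. The member at 23654220 to 23654561 had folds of 6.90 and 5.68 in WT and 17.2 and 10.05 in DKO. At 23666045 to 23666311 the folds were 9.20 and 6.70 in WT and 16.3 and 13.5 in DKO. In all 3 of these members both DKO folds were higher, as at 76.9% of all shared autosomal regions. The member at 23627049 to 23627240 went the other way, with folds of 7.81 and 7.66 in WT and 5.85 and 5.40 in DKO. Neighbouring members of 1 hub thus differed in the direction of their values.

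**Figure D2:**
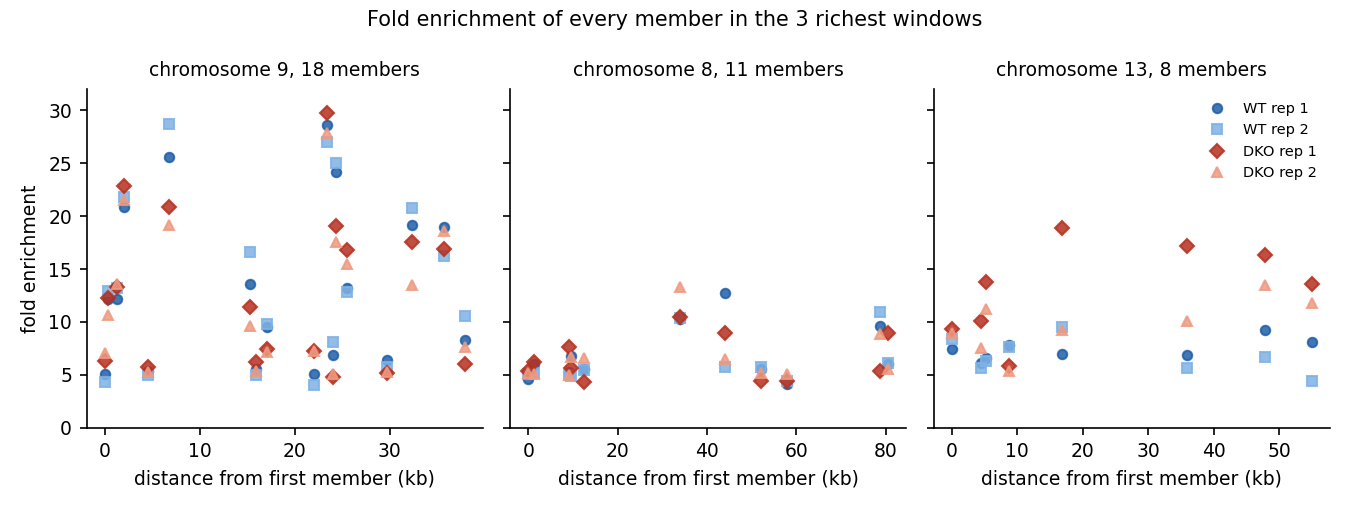
Fold enrichment of every member in the 3 richest hub windows, against the distance in kb from the first member; colours and symbols give the 4 libraries. On chromosomes 9 and 8 the symbols of both genotypes mix, up to a fold of 29.8 on chromosome 9, while on chromosome 13 DKO replicate 1 reaches 18.9 and the highest WT fold is 9.52.

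The remaining windows of the 10 richest each had 6 or 7 members, and the 4 with 6 were taken from 14 such windows as those whose members covered the most bases. With 7 members they were 8800001 to 8900000 on chromosome 19, 48600001 to 48700000 on chromosome 11 and 32300001 to 32400000 on chromosome 2. With 6 members they were 29500001 to 29600000 on chromosome 7, 80000001 to 80100000 and 126500001 to 126600000 on chromosome 10, and 35300001 to 35400000 on chromosome 17. The last lies, from general background, in the gene-dense part of the mouse major histocompatibility complex that holds the cytokine gene Tnf. This too was not checked against an mm9 annotation. The chromosome 2 window had the weakest signal of these, with median folds of 5.08 and 4.44 in WT and 7.74 and 6.32 in DKO. The chromosome 19 window was the strongest of them, with 9.38 and 7.71 in WT and 14.99 and 11.3 in DKO. In both windows the DKO medians were above the WT medians, which held in 54 of the 64 hub windows. By single region, both DKO folds were above both WT folds at 76.9% of all shared autosomal regions. The same count over windows with fewer shared regions is not given here, so it is not read as a trait of hubs.

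Members were slightly weaker than shared regions elsewhere in every library. The median fold of the 362 members was 6.93 and 6.43 in WT, and that of the 7587 shared regions outside hubs was 7.56 and 6.63. In DKO it was 12.2 and 8.84, against 13.3 and 9.64. The pileups were about equal, with medians of 25, 21.5, 45 and 27 fragments for members and 24, 20, 45 and 27 elsewhere, with the WT libraries first. The background was higher at members in all 4 libraries. It was 2.66 and 2.35 fragments in WT, against 2.27 and 2.05, and 2.77 and 2.13 in DKO, against 2.39 and 1.82. Leaving out the chromosome 9 window gave median folds of 6.92, 6.40, 12.2 and 8.82. Dense accessible stretches thus had as many fragments per site, over a higher local level. The part of neighbouring sites in that local level was not tested. With 4 libraries, a paired exact test could not pass 0.05, and none was made.

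The position of a member's summit was close to the same in the 4 libraries. The distance between the outermost of its 4 summits had a median of 36 bp for members and 44 bp for shared regions outside hubs. It was within 50 bp for 61.9% of the members and 53.5% of the others. In the chromosome 9 window the median was 7 bp, and all 18 members were within 50 bp. Without that window it was 37 bp. In each library 0.829% to 2.76% of the members held more than 1 peak, so most members were single sites.

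Folds ran higher in the DKO lists at shared sites in general, so members were also compared by rank. The rank of a member is the percentile of its fold among the 7949 shared regions in the same library, where 100 is the strongest. By fold alone, both DKO libraries were above both WT libraries at 264 of 362 members, or 72.9%, against 76.9% of all shared regions. Both DKO folds were below both WT folds at 14 members, or 3.87%, against 0.767%. By rank, both DKO libraries were above both WT libraries at 62 members (17.1%), against 19.1% of all shared regions. Both were below at 92 members (25.4%), against 19%. Of these 92 members, 35 lay in the 5 windows whose mean DKO rank lay furthest below WT, which held 45 members. In the other 59 windows 57 of 317 members (17.98%) ranked lower and 62 (19.6%) higher. The shares over all shared regions, 19% and 19.1%, had no windows left out in this way. These 5 windows were picked after their values were seen, as those furthest below. The lower share in the rest therefore follows in part from that choice, and the split is a description.

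The 5 windows were those on chromosome 1 at 85000001 to 85100000 and 87500001 to 87600000, both on chromosome 8 described above, and the one on chromosome 9. In the first, the mean rank of the members was 46.0 in WT and 11.6 in DKO. In the second it was 46.2 in WT and 16.0 in DKO. On chromosome 8 the mean ranks were 64.6 in WT and 38.0 in DKO for 19700001 to 19800000, and 34.5 and 11.4 for 19900001 to 20000000. On chromosome 9 they were 70.9 and 48.3. The next window, on chromosome 7 at 132700001 to 132800000, went from 30.4 in WT to 13.2 in DKO. In each of these 6 windows both DKO libraries were below both WT libraries. A lower rank was not always a lower fold. At 85076312 to 85076492 on chromosome 1 the folds were 7.07 and 6.81 in WT and 9.52 and 8.37 in DKO, yet the ranks were 40.98 and 53.9 in WT and 16.6 and 34.5 in DKO. At 85087278 to 85087681 the folds themselves were lower in DKO, with 8.27 and 6.29 in WT and 5.96 and 6.12 in DKO. Of the 45 members in the 5 windows, 10 had higher folds in both DKO libraries and 12 had lower folds in both.

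Width and summit position were not used to pick these windows, and the 5 were not alike in them. The median width of the members was 148 to 168 bp in the windows on chromosomes 8 and 9, and 267 and 251 bp in those on chromosome 1. In the other 59 windows it was 220.5 to 586 bp, so the chromosome 1 windows lay within that range and the others below it. The outermost summits of the 6 members at 87500001 on chromosome 1 were 10 to 88 bp apart, against a median of 7 bp in the chromosome 9 window. In DKO replicate 1 the median pileup of a window was 18.5 to 24 fragments on chromosomes 1 and 8, while in the other 59 windows it was 32 to 85. In DKO replicate 2 the ranges were 16.5 to 28 and 16 to 43 fragments, and in WT replicate 1 they were 20 to 31 and 15 to 39. The separation was therefore seen in DKO replicate 1 and not in DKO replicate 2 or WT replicate 1. Unlike width, pileup enters the fold by which these windows were picked. Low DKO pileups therefore follow in part from that choice. Windows of this kind were not particular to hubs. Among the 584 windows with 3 or 4 shared regions, 21 had a mean rank difference as low as the fifth of these windows or lower, and the lowest was -48.8.

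**Figure D3:**
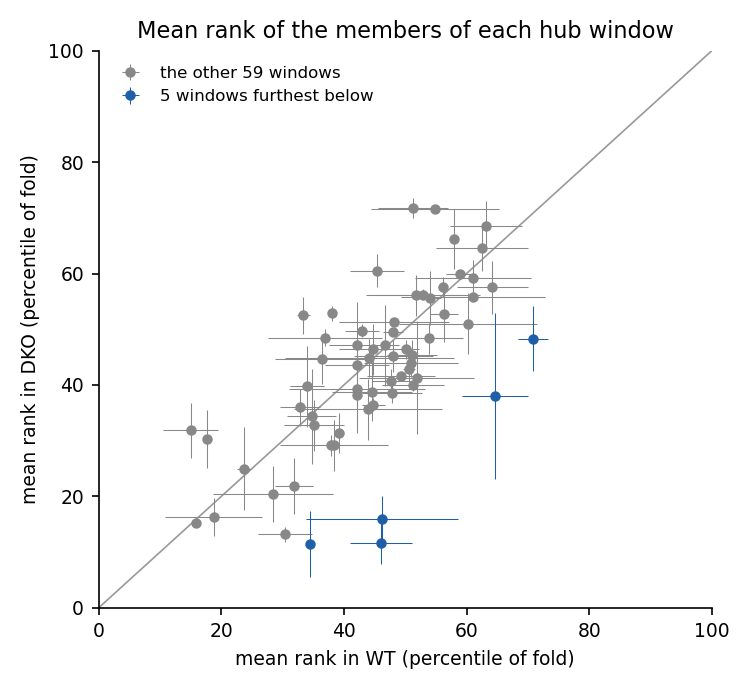
Mean rank of the members of each of the 64 hub windows in DKO against WT, as the percentile of fold among all shared regions; points are means of 2 libraries, lines run from the lower to the higher library, and the diagonal marks equal rank. The 5 windows in blue lie furthest below the diagonal, with mean DKO ranks of 11.4 to 48.3.

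**Figure D4:**
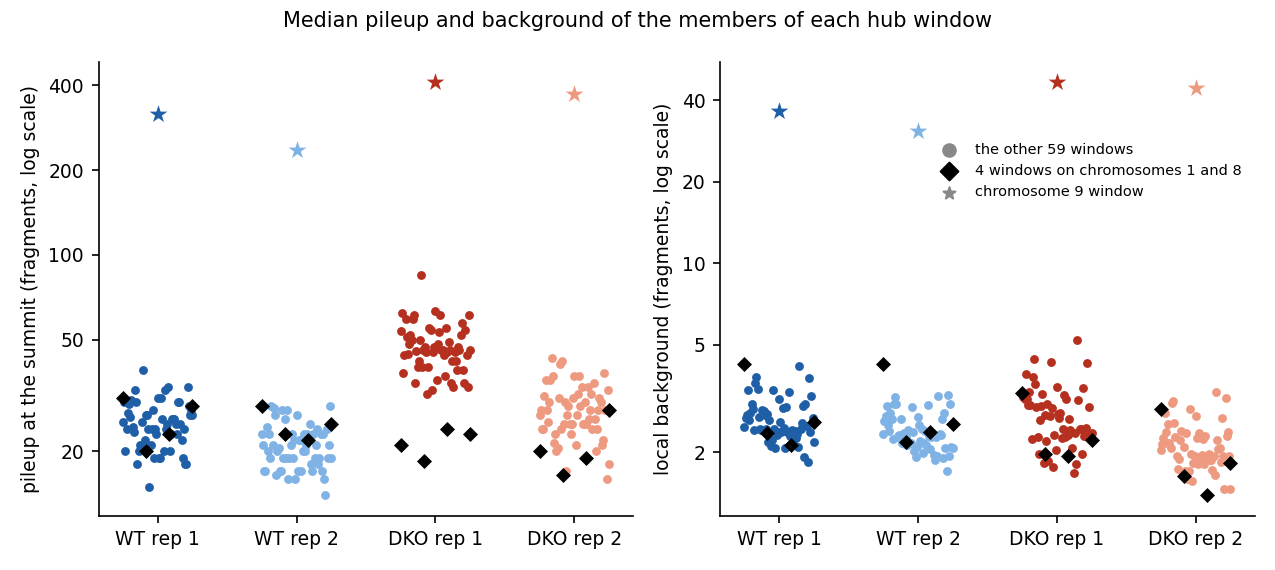
Median pileup (left) and local background (right) of the members of each hub window in fragments, on log scales, for the 4 libraries. The chromosome 9 window (star) has pileups of 235.5 to 411 fragments, and 4 windows on chromosomes 1 and 8 (black diamonds) have pileups below the other windows in DKO replicate 1. Those 4 were picked by rank of fold, which pileup enters.

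At the other end, 10 hub windows had a mean rank above both WT libraries in both DKO libraries, and 16 had one below, out of 64. Over all 648 windows with at least 3 shared regions these shares were 20.8% and 19.1%. The largest difference upwards was on chromosome 17 at 46800001 to 46900000, from a mean rank of 51.2 in WT to 71.7 in DKO. It was the only hub window that held shared regions alone, 5 of 5. Its member at 46817749 to 46818113 had folds of 7.59 and 5.84 in WT and 19.7 and 14.5 in DKO. That at 46888960 to 46889481 had folds of 9.85 and 6.04 in WT and 17.7 and 17.3 in DKO. Its member at 46848241 to 46848440 had overlapping ranks, 44.8 and 25.5 in WT and 20.2 and 29.5 in DKO, with folds of 7.26 and 5.53 in WT and 10.01 and 7.97 in DKO. On chromosome 9 the window 107400001 to 107500000 went from a mean rank of 33.4 in WT to 52.5 in DKO. These differences were not tested, since an exact permutation of 2 libraries against 2 gives a two-sided p of at least 0.33.

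Beside their 362 members the hub windows held 427 regions that were not called in all 4 libraries. A region was DKO-only when both DKO lists and neither WT list had a peak in it, and WT-only in the opposite case. DKO-only regions numbered 88, or 20.6% of the 427 (exact 95% binomial interval 16.9 to 24.8%, counting error only). Over all autosomal regions not called in all 4 libraries the share was 18%, and in windows with 3 to 4 shared regions it was 19.4% (17.9 to 20.9%). The share in hubs was therefore not distinguishable from that elsewhere at this number of regions. As a share of all 789 regions in the windows it was 11.2% (9.04 to 13.6%), against 14.2% on the autosomes, but that share is lowered by the rule, which asks for shared regions. Each hub window held 1.38 DKO-only regions on average, against 0.894 in windows with 3 to 4 shared regions and 0.556 in windows with 1 to 2. DKO-only regions were thus more numerous in denser windows, at about the same share of the regions that were not shared.

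WT-only regions were rare in hubs and over the autosomes alike. There were 2, or 0.468% of the 427 (0.0568 to 1.68%), against 0.796% over all autosomal regions not called in all 4 libraries. The interval covers that share, so the WT-only share in hubs was not distinguishable from it at this number of regions. Of all regions in the windows they were 0.253%, against 0.63% on the autosomes, but the rule lowers that share too. Both were weak. One lay on chromosome 7 at 52482840 to 52483080, with WT folds of 5.70 and 5.38. The other lay on chromosome 1 at 85095798 to 85095910, in the window where mean DKO rank lay furthest below WT, with folds of 5.27 and 6.23. Each rested on 14 to 17 fragments.

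**Figure D5:**
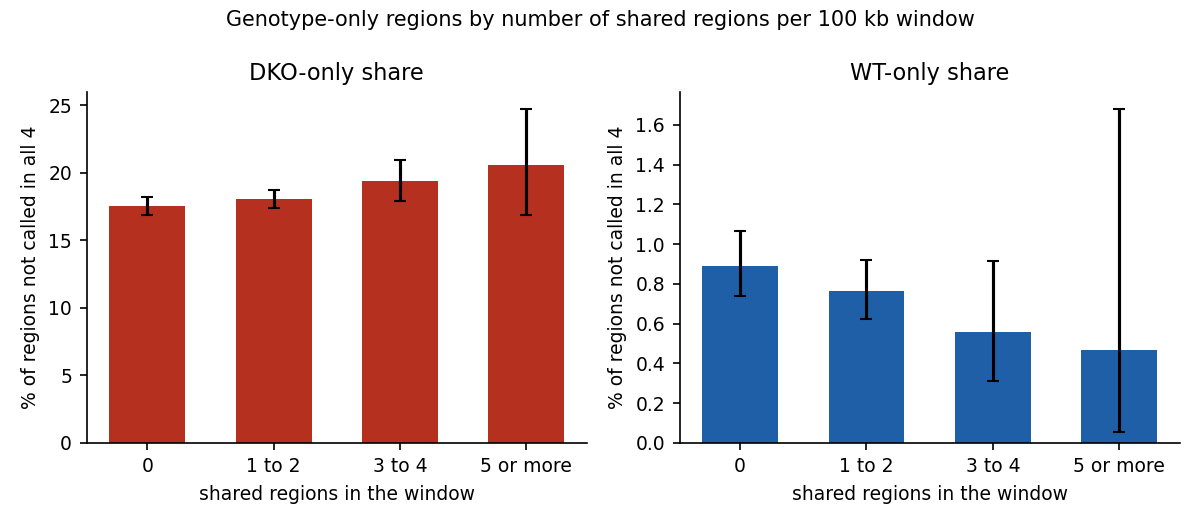
Share of DKO-only (left) and WT-only (right) regions among the regions not called in all 4 libraries, by the number of shared regions in the 100 kb window; bars start at 0 and lines are exact 95% binomial intervals, which cover counting error only. The hub windows, at 20.6% and 0.468%, overlap the other classes.

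DKO-only regions were found in 45 of the 64 hub windows, which held a median of 12 regions. The same count over other windows is not given here. DKO-only regions numbered at most 6 in a hub window. The window on chromosome 13 at 23600001 held these 6, of the 16 regions there that were not shared. On chromosome 10 the window 126500001 to 126600000 held 5 of 7, and on chromosome 17 the window 35300001 to 35400000 held 5 of 15. The windows 47600001 to 47700000 on chromosome 17 and 48600001 to 48700000 on chromosome 11 held 4 each, of 5 and of 10. In the chromosome 17 window at 47600001 the WT lists had calls at 6 of 11 regions each, the 6 members, and the DKO lists at 11 and 10. The 5 windows whose mean DKO rank lay furthest below WT held 2 DKO-only regions among 63 (3.17%), and the other 59 windows 86 among 364 (23.6%, interval 19.4 to 28.3%). Rank and DKO-only calls come from the same genotypes, so the second follows in part from how the 5 windows were picked.

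DKO-only regions in hubs were no stronger than those elsewhere. Their median fold was 7.60 in DKO replicate 1 and 5.93 in DKO replicate 2, against 8.19 and 6.06 for the 5341 outside hubs. The upper quartile of their fold was 10.3 and 6.99, against 10.6 and 7.43 outside hubs. Both libraries reached a fold of 8 at 15 of the 88, and the share outside hubs is not given here. The strongest lay on chromosome 9 at 107444186 to 107444593, with folds of 17.7 and 14.6 and pileups of 63 and 49 fragments in DKO replicates 1 and 2. It was 8.03 kb from the nearest shared region and in the window whose mean rank was 33.4 in WT and 52.5 in DKO. The next, on chromosome 14 from 56248287 to 56248401, had folds of 14.8 and 10.2 and was 115 bp wide. The third, on chromosome 6 at 117829065 to 117829317, with 11.6 and 10.2, lay 0.592 kb from a member. The mean rank of the chromosome 14 window was 48.1 in WT and 51.4 in DKO. That of the chromosome 6 window was lower in DKO, with 37.8 in WT and 29.2 in DKO. The median distance from a DKO-only region in a hub to the nearest shared region was 6.54 kb, and 12 of the 88 were within 1 kb. The same distances outside hubs are not given here.

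The number of regions called in some but not all libraries had the same order as the lengths of the lists. Of the 427 regions, WT replicates 1 and 2 had calls in 122 and 45 and DKO replicates 1 and 2 in 359 and 217. The means were 83.5 ± 54.4 for WT and 288 ± 100.4 for DKO (SD, n = 2 each), a difference of 1.79 on the log2 scale. An exact permutation test, two-sided, gave p = 0.33, the minimum for 2 libraries against 2. Outside the hubs the same difference was 1.69. With every list shortened to the 11073 peaks of highest −log10 p the difference was 0.49 and the DKO-only share 12.1%, over 10 hub windows. In hubs DKO replicate 2 called 50.8% of these regions (46.0 to 55.7%, counting error only), against 41.8% outside (41.2 to 42.4%). Its share rose with density, from 40.7% in windows with 0 shared regions and 42.2% with 1 to 2. In windows with 3 to 4 it was 45.6% (43.7 to 47.5%), which overlaps the hub interval. Over all hub windows together, the other 3 libraries called 28.6%, 10.5% and 84.1%, close to their 30.1%, 9.39% and 85.7% outside. In the chromosome 17 window at 35300001, for example, DKO replicate 2 had calls at 14 of 21 regions, DKO replicate 1 at 20, WT replicate 1 at 10 and WT replicate 2 at the 6 members only.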

How the data were processed

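The members, lists and windows were chosen with earlier results of these data known. Each library has its own deposited narrowPeak list. Bowtie2 2.2.5, MACS2 2.1.1, FastQC and mm9 are named, per the submitters' processing notes. The settings and any control library were not given in the sources used here. The fold enrichment that the authors deposited is a ratio of summit pileup to local background, taken here with 1 added to each. The authors also deposited the −log10 p and −log10 q, and start, end and summit, which were converted to count from 1. Pileup and background were solved from the deposited fold and −log10 p; the pileup was whole within 0.02 for 100% of peaks in each list.

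Peaks were merged, classed and counted in 100 kb windows as the report states. The highest fold stood for a region with several peaks in a library. On simulated lists with well-separated planted peaks 50 of 50 planted hubs were recovered. This checks the merging and counting steps only, not calls in lists of unequal length. Named by rule were the 10 richest windows, adjoining pairs, the 5 windows with most DKO-only regions, the 10 members with the highest and 5 with the lowest minimum fold (of these 5, examples are given), and members of the 3 richest windows, by example. Other named members, and windows by rank, were chosen after their values were seen. Planned counts of gene lists needed an mm9 annotation and were not made. Ranks within the 7949 shared regions are given because the lists differ in length. Absence of a peak means only that a site was not listed. Read totals are not in the lists. Alternatives covered peak thresholds, equal lists, merging, windows, X and leaving out each library. Python 3.11.15, pandas 2.3.3, numpy 2.4.6 and scipy 1.17.1 were used.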

Additional observations from a re-analysis of the deposited data

How the results depend on the processing

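Each of 5 results was recomputed under 17 settings; leaving out the chromosome 9 window or the 5 windows whose DKO rank lay furthest below WT was added after seeing the data. The log2 difference in regions not called in all libraries kept its sign in all 17. At −log10 q of at least 10 it was 0.74 (exact permutation p = 0.67), from means of only 1.5 regions in WT and 2.5 in DKO. At equal list lengths it was 0.49. Paired by replicate number, as a replicate block, it was 1.91 (exact sign-flip p = 0.5, the smallest possible). How many hubs there were depended on the settings. From 64 hubs and 362 members, there were 35 and 203 at −log10 q of at least 5, 1 and 18 at 10 (the chromosome 9 window alone) and 10 and 67 at equal list lengths. There were 14 and 86 with windows of 50 kb, 241 and 1436 with 200 kb, 190 and 866 with at least 4 shared regions, and 20 and 142 with at least 6. Leaving out 1 library gave 66 to 269 hubs and 378 to 1540 members, the highest without WT replicate 2, the shortest list. The DKO-only share, 20.6%, was 25% at −log10 q of at least 10 (1 of 4 regions), 12.1% at equal list lengths (4 of 33 regions) and 13.5% with 50 kb windows. Leaving out 1 library gave 30.2 to 62.8%, since fewer lists then define the class. The WT-only share, 0.468%, was 0% at −log10 q of at least 5, at 10 and with at least 6 shared regions, and 3.03% at equal list lengths; leaving out 1 library gave 1.30 to 4.08%. Of the 64 hubs, 54 were hubs when peaks within 500 bp were merged, and 35 at −log10 q of at least 5. Pileups near 20 fragments limit all calls.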

Other observations

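Hubs lay in stretches that were dense beyond the window itself. The 115 windows that adjoin a hub and are no hub held 1.40 shared regions on average, against 0.315 over all 24053 autosomal windows that are no hub, counted from 3000001 to the last region of each chromosome. Of the adjoining windows, 26 (22.6%) held 3 or 4 shared regions, against 2.43% of all such windows, and 31 (27.0%) held none, against 79.0%. DKO-only regions were also more frequent there, 0.965 a window against 0.222. These are descriptions, because neighbouring windows of a hub were chosen by where shared regions lie.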
